A study of Mus musculus with 8 samples.

Results

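The large subunit of the cytosolic ribosome is built from ribosomal RNA and a fixed set of proteins, most of them encoded by genes named Rpl and, for the lateral stalk, Rplp. The deposited table was searched for every entry with such a name, the numbered genes and those with the endings a, l and l1 included and pseudogene names left out, and this found 47 of its 10663 entries. Membership was decided by the names alone, and no measured value entered that rule. Earlier results of these data were known when the genes and lists described here were chosen. All 47 passed the filter on low values described here, a level of at least 0.5 CPM in at least 4 libraries, so none was lost. They lie on 17 chromosomes, with Rpl10, Rpl36a and Rpl39 on the X chromosome.

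Gene expression had been measured by RNA sequencing in 3T3-L1 adipocytes, fat cells made in culture from a mouse fibroblast line. The 8 libraries fall into 4 controls and 4 libraries labelled miR-690oe, for overexpression of the microRNA miR-690, which the series title calls miR-690-5p. All libraries carry the same further labels: cells at passage 2-3, growth in medium with 4.5 g/L glucose and 10% serum, and a treatment of 5 pM miR-690 mimic. That treatment is written for the controls too, and the sources used here do not say what those cells were given instead. 3T3-L1 is a single cell line. The labels name no separate cultures behind the libraries of a group, and the p-values therefore measure the spread between these libraries alone, which may be technical.

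Each ribosome carries 1 copy of nearly every large-subunit protein, and the stalk proteins Rplp1 and Rplp2 are the known exception, present as dimers. The proteins are made in the cytosol, imported into the nucleus and assembled on ribosomal RNA in the nucleolus, and those that find no partner are mostly degraded. Vertebrate mRNAs for ribosomal proteins begin with a run of pyrimidines, the 5' terminal oligopyrimidine (TOP) tract, through which mTOR signalling and the RNA-binding protein Larp1 control their translation and stability. In fat cells, insulin is a well-known activator of mTOR and of ribosome production.

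The microRNA is shown first because its seed decides which of these mRNAs hold a match. Its mature sequence in RefSeq (mmu-miR-690, GRCm38.p6, minus strand) is 22 nt long, and capitals mark the seed, bases 2 to 8.
miR-690 (chr16:28599940-28599961): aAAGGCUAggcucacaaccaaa
The DNA match to the seed reads TAGCCTT. It was found in the annotated 3' UTR of 0 of the 47 large-subunit genes, whose 3' UTRs have a median of 84 nt and run from 11 to 1841 nt. Of the 10280 listed genes with an annotated 3' UTR, whose median length is 921 nt, 1081 (10.5%) held it. Searched over the whole transcript, the match was in 1 of the 47 genes (2.13%), Rpl17, and in 1599 of 10387 listed genes (15.4%). A match is a string of letters and does not show binding.

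Pyrimidine runs around the start are shown next, because a TOP tract is the sequence these mRNAs are known to share. The runs marked here are the longest within a window and need not be the tract itself, which begins at the first base of the mRNA. RefSeq promoters were at hand for 35 of the 47 genes. Around the annotated start, from 50 bases before it to 50 bases after it, 31 of the 35 (88.6%) held a run of at least 8 consecutive C or T on the sense strand, against 2583 of 8375 listed genes with a promoter (30.8%). The longest run had a median of 11 bases in the large-subunit genes, with a range of 6 to 21, and of 6 bases in the listed genes. The windows of 30 bases below belong to the 5 genes with the lowest and the 5 with the highest log2 fold change among those with a promoter, so that the runs can be read beside both ends of the response. They are from GRCm38.p6, each written 5' to 3' on the gene's own strand, with the longest run of C and T in capitals.
Rplp2 (chr7:141447636-141447665, plus): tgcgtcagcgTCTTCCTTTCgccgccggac
Rpl38 (chr11:114668568-114668597, plus): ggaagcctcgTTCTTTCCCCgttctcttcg
Rpl28 (chr7:4792952-4792981, plus): gcctctcgtgTCTCTCTTTCCgtctccggc
Rpl41 (chr10:128549119-128549148, minus): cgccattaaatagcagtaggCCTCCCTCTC
Rpl13a (chr7:45128722-45128751, minus): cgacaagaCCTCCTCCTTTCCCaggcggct
Rpl23 (chr11:97782404-97782433, minus): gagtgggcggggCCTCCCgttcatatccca
Rpl4 (chr9:64173405-64173434, plus): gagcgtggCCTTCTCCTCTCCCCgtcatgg
Rpl22l1 (chr3:28805499-28805528, plus): cgcaagcccgTTCTCTTCCCacggctgcag
Rpl7l1 (chr17:46782671-46782700, minus): cgtcgaggcgggCCTCTCTaccccgcccgg
Rpl35a (chr16:33056468-33056497, plus): cggggcttgCCTTCCTCTTTCCgccatctt
The first 5 genes, those with the lowest fold change, had runs of 10, 10, 11, 10 and 14 bases. The other 5, in the order printed, had runs of 6, 15, 10, 7 and 13 bases, those of Rpl23 and Rpl7l1 being under 8 bases. Outside these 10 genes, runs under 8 bases were found in Rpl24 (6 bases) and Rplp0 (7 bases). Their log2 fold changes were -0.31 and -0.29, so short runs were not confined to genes that fell little. Counted with the annotated start as base 1, the runs of the first group began at base -5 (Rplp2), -2 (Rpl38), -3 (Rpl28), 41 (Rpl41) and 3 (Rpl13a). Those of the second began at base 19 (Rpl23), 27 (Rpl4), 2 (Rpl22l1), -32 (Rpl7l1) and 25 (Rpl35a), so only 5 of the 10 begin within 5 bases of the annotated start. In the 300-base promoters, searched on both strands, the letters CCGGAAG stood in 11 of 35 (31.4%) against 20.6% of listed genes. The letters AAGATGGC stood in 3 (8.57%) against 5.43%. The letters TCTTTC, which can lie within the pyrimidine run, stood in 17 (48.6%) against 17.2%. These are counts of letters, and no factor was measured.

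The control libraries held 29773446 to 33816227 reads over the listed genes and the miR-690oe libraries 31211349 to 38235522, as read from the steps between the deposited values. The fewest reads of any large-subunit gene in any library were 348, for Rpl35a, a counting error of 5.36%, which is larger than the CV of that gene in either group (2.90% and 1.73%). Every other gene of the 47 had at least 1123 reads in each library. Library 1 of miR-690oe stood apart from the other miR-690oe libraries over all listed genes, with a mean chi-square per gene of 17.0 to 21.9 in its pairs against 9.49 to 11.7 among the other 3 and 3.96 to 8.03 among controls. It was also the library with the lowest summed level of the 47 genes, and the main counts are given with and without it. Of 12 adipocyte markers 10 were listed, Lep and Pck1 being the others, and their summed level was 8995 to 10271 CPM in controls and 7648 to 9829 CPM in miR-690oe. Of 7 preadipocyte markers 6 were listed, at 3336 to 3881 CPM and 3142 to 4237 CPM. The 3 listed macrophage markers of 7 (Ptprc, Csf1r, Adgre1 and Itgam were not among the listed genes) summed to 24.1 to 27.9 CPM and 21.4 to 24.1 CPM, the 1 endothelial marker of 4, Egfl7, to 3.14 to 3.76 CPM and 2.51 to 3.89 CPM, and the 1 muscle marker of 4, Des, to 23.6 to 26.6 CPM and 19.0 to 22.5 CPM.

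Nearly the whole set of large-subunit genes was lower in miR-690oe adipocytes. With the values as deposited, 44 of 47 fell, 0 rose, and Rpl22l1, Rpl7l1 and Rpl35a did not pass the test (limma, adjusted p under 0.05 over 10658 genes). Of all genes tested, 17.4% fell and 26% rose, so that 59.9% of calls were higher, against 46.4% with quantile normalization. The shift was small and even: the median log2 fold change of the 47 was -0.27, with a middle range from the 25th percentile, -0.30, to the 75th, -0.22, and the extremes were -0.37 and 0.06. The median over all genes tested was 0.02. Without miR-690oe library 1, 43 of the 47 fell, 0 rose and their median was -0.24. As ratios of mean CPM, the 44 genes that fell stood at 0.774 to 0.909 of control, with standard errors of the log2 fold change between 0.040 and 0.063 over the 47.

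In every miR-690oe library the set took a smaller share of the reads than in any control library. The 47 genes together made up 4.18%, 4.15%, 3.94% and 4.09% of the listed reads in controls 1 to 4, and 3.25%, 3.35%, 3.52% and 3.59% in miR-690oe libraries 1 to 4. The group means were 4.09% ± 0.107 and 3.43% ± 0.155 (SD, n = 4 each). CPM are shares of the reads, so these values do not give the amount of RNA in a cell, and in bulk RNA less RNA per cell cannot be told apart from fewer cells that express the genes. In 43 of 47 genes no miR-690oe library reached the lowest control, against 15.9% of all genes tested. The 4 with overlapping groups were Rpl39, Rpl29, Rpl22l1 and Rpl35a. Counted per library, 46, 46, 44 and 45 of the 47 genes lay below all 4 controls in miR-690oe libraries 1 to 4.

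**Figure D1:**
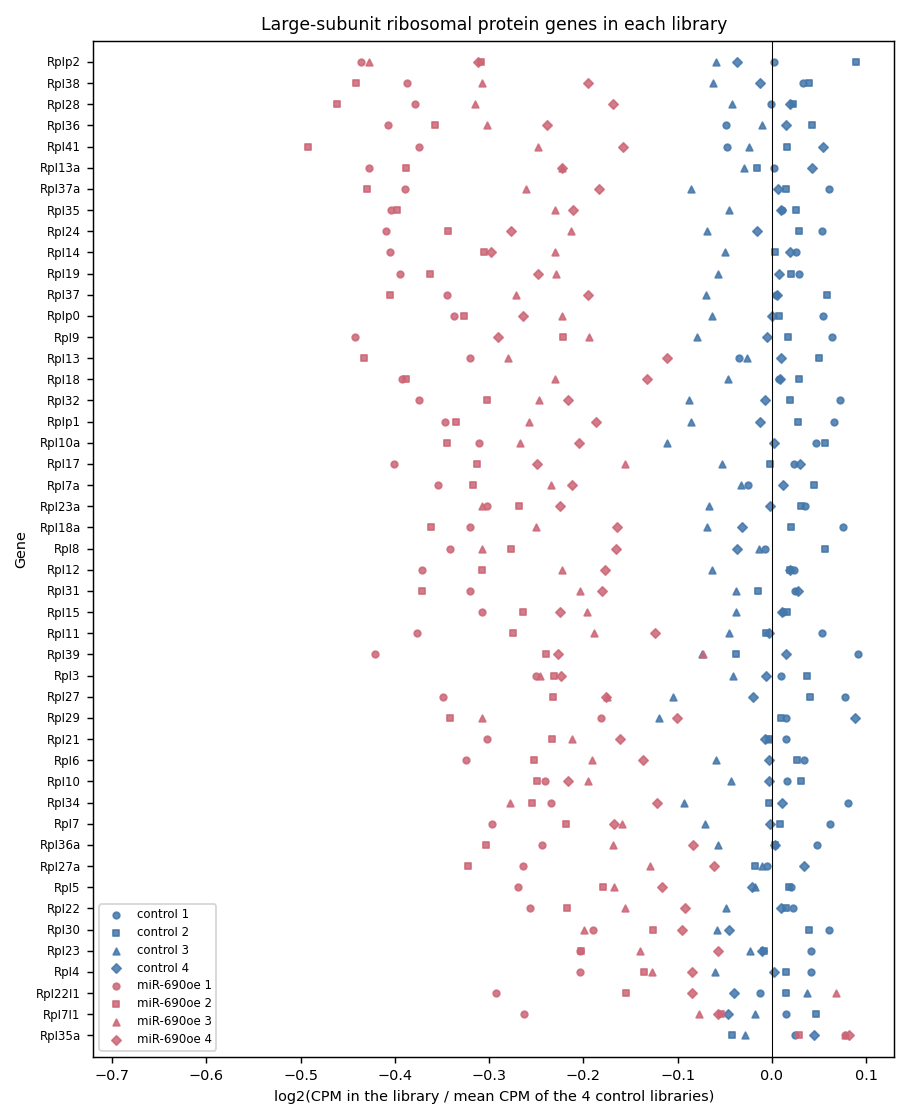
Each point is the log2 ratio of a gene's CPM in a library to its mean CPM over the 4 control libraries (x axis), with genes in order of fold change (y axis), control libraries in blue and miR-690oe libraries in red. Controls lie around 0 and miR-690oe libraries to their left for 43 genes, while the groups overlap for Rpl39, Rpl29, Rpl22l1 and Rpl35a.

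Fold changes followed transcript length across the whole table, and values with that trend taken out stand beside each gene below. Other genes with a longest coding transcript under 1000 nt had a median log2 fold change of -0.22, and 309 of 478 (64.6%) fell. Of 1376 other genes of 6000 nt and over, 1120 (81.4%) rose, with a median of 0.30. Large-subunit mRNAs are short: the principal transcripts have a median of 780 nt and run from 364 to 2606 nt. The trend was removed by subtracting a smooth curve over transcript length and GC content from each library, and the values left are called detrended here. They rest on the longest coding transcript of each gene unless the principal transcript is named. After detrending, 13 of the 47 genes fell and 1, Rpl35a, rose, with a median log2 fold change of -0.08 and a median over all genes of -0.005. Of all 10386 detrended genes, 9.05% fell and 7.36% rose.

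All 4 genes given here for the stalk and its foot, which recruit and activate the elongation factors, fell with the values as deposited. After detrending on the longest transcript 1 of them did, and more did on the principal transcript. Rplp0, its base on the ribosomal RNA, stood at 4240.1, 4104, 3906 and 4082 CPM in controls 1 to 4 and at 3231, 3256, 3499 and 3399.5 CPM in miR-690oe libraries 1 to 4. Every miR-690oe library was below every control. The means were 4083 ± 137 and 3346 ± 126 CPM (SD, n = 4), a log2 fold change of -0.29 ± 0.048 (SE, limma adjusted p = 0.000257). Rplp1, which forms dimers with Rplp2 on Rplp0, had 1829, 1780.5, 1646 and 1732 CPM in the controls and 1374, 1384, 1461 and 1535 CPM in miR-690oe. The groups were again apart, and Rplp1 fell by 0.28 on the log2 scale (SE 0.050, limma adjusted p = 0.000369).

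Rplp2 had the lowest fold change of the 47. Its CPM were 1112, 1181, 1066 and 1083 in controls and 821, 897, 825 and 895 in miR-690oe. No library of one group reached the other, and the mean went from 1110.3 ± 50.8 to 859 ± 42.0 CPM, or 0.774 of control (log2 fold change -0.37 ± 0.048, limma adjusted p = 3.06e-05). Rpl12, which lies beside Rplp0 at the foot of the stalk, had 2297, 2290.2, 2162 and 2290.3 CPM in the controls and 1747, 1826, 1937 and 1999 CPM in miR-690oe. It fell by 0.27 (limma adjusted p = 0.000539). Detrended, Rplp2 still fell, by 0.16 (limma adjusted p = 0.0151). Rplp0 (-0.13, limma adjusted p = 0.0733), Rpl12 (-0.10, limma adjusted p = 0.0968) and Rplp1 (-0.03, limma adjusted p = 0.656) did not pass. With the trend taken over principal transcripts, Rplp0 (-0.15, limma adjusted p = 0.0317) and Rpl12 (-0.13, limma adjusted p = 0.0412) fell too. Rplp2 also fell in that fit (limma adjusted p = 0.00903), and Rplp1 did not pass (limma adjusted p = 0.592).

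Ratios between stalk genes were computed within each library. The log2 ratio of Rplp1 to Rplp0 was -1.23 ± 0.0197 in controls and -1.22 ± 0.0492 in miR-690oe (SD, n = 4), a difference of 0.01 (exact two-sided permutation p = 0.857). That of Rplp2 to Rplp0 was -1.88 ± 0.0598 and -1.96 ± 0.0944, a difference of -0.08 (exact two-sided permutation p = 0.257). Ratios of 5 pairs were tested in this way, and with 70 orders of the libraries the smallest possible p is 0.0286. Benjamini-Hochberg adjustment over the 5 left these p-values at 0.857 and 0.429, and with so few orders the test could not show that the ratios stayed the same.

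Rpl5 and Rpl11, which carry the 5S ribosomal RNA into the subunit and, when free, bind the p53 regulator Mdm2, both fell. Rpl5 had 882, 881, 859 and 857 CPM in the controls and 722, 768, 774 and 802 CPM in miR-690oe. The groups were apart, with means of 869.6 ± 13.7 and 766 ± 33.4 CPM (log2 fold change -0.18 ± 0.043, limma adjusted p = 0.00295). Rpl5 is 1 of the genes whose value hardly moved by detrending, at -0.18 (limma adjusted p = 0.00618), and its annotated transcript is long for the set, at 2045 nt. Under quantile normalization it stood at -0.08 and did not pass (limma adjusted p = 0.0954). Rpl11 had 734, 705, 686 and 707 CPM in the controls and 545, 585, 621 and 649.7 CPM in miR-690oe. It fell by 0.24 (SE 0.051, limma adjusted p = 0.00152), and its detrended value was -0.03 (limma adjusted p = 0.69). The log2 ratio of Rpl5 to Rpl11 was 0.30 ± 0.0301 in controls and 0.35 ± 0.0512 in miR-690oe, with overlapping libraries (exact two-sided permutation p = 0.171, adjusted p = 0.429).

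Among genes for the catalytic core and the contact with the small subunit, the values were as even. Rpl3, close to the peptidyl transferase centre, stood at 1418, 1444, 1368 and 1401 CPM in the controls and within a narrow band of 1184, 1199, 1187 and 1206 CPM in miR-690oe. It fell by 0.24 (limma adjusted p = 0.000282), with the groups well apart. Rpl10, known from yeast as 1 of the last proteins to join the maturing subunit, had 818, 826, 785 and 807 CPM in the controls and 684, 680.3, 707 and 696 CPM in miR-690oe. It fell by 0.22 (limma adjusted p = 0.000364), again without overlap. Rpl24, which forms a bridge to the small subunit and is mutated in the Belly spot and tail mouse, had 309, 304, 284 and 294 CPM in the controls and 224, 234, 257 and 246 CPM in miR-690oe. It fell by 0.31 (limma adjusted p = 0.00013). Detrended, Rpl3 stood at -0.08 (limma adjusted p = 0.158), Rpl10 at -0.06 (limma adjusted p = 0.296) and Rpl24 at -0.10 (limma adjusted p = 0.0799).

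The genes with the lowest fold changes after Rplp2 differ in what their proteins are known for. Rpl38, known in mouse for the translation of certain Hox mRNAs, had 222, 223, 207 and 215 CPM in the controls and 166, 159.5, 175 and 189 CPM in miR-690oe. It fell by 0.33 (limma adjusted p = 0.000134). Rpl28, a protein that budding yeast lacks, had 448, 455, 435 and 454 CPM in the controls and 345, 326, 360.3 and 399 CPM in miR-690oe. It fell by 0.33 (limma adjusted p = 0.000182), and still by 0.14 after detrending (limma adjusted p = 0.0325). Rpl36 had 299, 318, 307 and 312 CPM in the controls and 233, 241, 251 and 262 CPM in miR-690oe. It too fell by 0.33 (limma adjusted p = 4.76e-05).

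Rpl41 encodes the smallest protein of the set, from a coding sequence of 78 nt. It had 499, 521, 507 and 536 CPM in the controls and 398, 367, 434 and 462 CPM in miR-690oe. It fell by 0.32 (limma adjusted p = 0.000552). Rpl13a, known from human cells for its part in the translational silencing of inflammatory mRNAs, had 1412, 1394, 1381 and 1452 CPM in the controls and 1048, 1077, 1208 and 1208 CPM in miR-690oe. It fell by 0.31 (limma adjusted p = 0.00021). For all 5 of these genes the groups were apart, and miR-690oe library 1 or 2 was the lowest. After detrending, Rpl38 stood at -0.08 (limma adjusted p = 0.153), Rpl36 at -0.06 (limma adjusted p = 0.308), Rpl41 at -0.08 (limma adjusted p = 0.255) and Rpl13a at -0.12 (limma adjusted p = 0.0656).

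At the other end, 3 genes fell by less. Rpl4, which lines the exit tunnel for the growing protein, had 2801, 2749, 2610.4 and 2725 CPM in the controls and 2362, 2478, 2491 and 2567 CPM in miR-690oe. The highest miR-690oe library was just below the lowest control, and the log2 fold change was -0.14 (limma adjusted p = 0.0239). That call rested on single libraries: without control 1, 2 or 4 or miR-690oe 1, the adjusted p was 0.0759, 0.063, 0.0616 or 0.0548, and with quantile normalization it was 0.216. Rpl23, which binds Mdm2 when free, had 967, 935, 925 and 933 CPM in the controls and 817, 817, 853 and 904 CPM in miR-690oe. It fell by 0.15 (limma adjusted p = 0.0117), and stood at -0.03 under quantile normalization (limma adjusted p = 0.608). Rpl30 had 391, 386, 360.3 and 363 CPM in the controls and 329, 344, 327 and 351 CPM in miR-690oe, with a narrow gap between the groups. It fell by 0.15 (limma adjusted p = 0.0107), and its sign turned by detrending, at 0.06 (limma adjusted p = 0.293). Rpl4 and Rpl23 stood at -0.04 (limma adjusted p = 0.522) and -0.02 (limma adjusted p = 0.761) in that fit.

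Rpl35a, a gene mutated in human Diamond-Blackfan anaemia, stood apart from the set in level and in direction. It was listed at only 12.1, 11.6, 11.7 and 12.3 CPM in controls and at 12.6, 12.2, 12.6 and 12.6 CPM in miR-690oe. The groups overlapped, with means of 11.9 ± 0.346 and 12.5 ± 0.216 CPM (log2 fold change 0.06 ± 0.063, limma adjusted p = 0.433). Detrended, it rose by 0.25 on the log2 scale (limma adjusted p = 0.0117), and no other large-subunit gene rose in that fit. Of the 50-base stretches of its transcripts, 54.5% also occur in transcripts of other annotated genes, 20 of them. Reads from such stretches cannot be placed with certainty, and the sources used here do not say how the authors treated them.

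Of the paralogue pairs, Rpl7 with Rpl7l1 and Rpl22 with Rpl22l1 were listed. Rpl3l, Rpl10l, Rpl36al, Rpl39l, Rpl26 and Rpl26l1 were not among the listed genes and were not analysed here. Rpl22, an RNA-binding protein that in mouse represses its paralogue, had 487, 484, 464 and 483 CPM in the controls and 401, 412, 430.3 and 449.7 CPM in miR-690oe. It fell by 0.18 (SE 0.044, limma adjusted p = 0.00385) without overlap. Rpl22l1 had 121, 123, 125 and 119 CPM in the controls and 99.7, 109.8, 128 and 115 CPM in miR-690oe. Its miR-690oe library 3 was the highest of all 8 and library 1 the lowest. The log2 fold change was -0.11 ± 0.060 (limma adjusted p = 0.135), without miR-690oe 3 it was -0.18 (limma adjusted p = 0.0165), and without miR-690oe 1 it was -0.06 (limma adjusted p = 0.398).

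Rpl7 had 1619, 1560.1, 1477 and 1549 CPM in the controls and 1263, 1333, 1389 and 1381 CPM in miR-690oe. It fell by 0.21 (SE 0.047, limma adjusted p = 0.00204) without overlap, but stood at -0.09 under quantile normalization (limma adjusted p = 0.0898). Rpl7l1, whose human product is found in precursors of the large subunit, had 179, 183, 175 and 171 CPM in the controls and 147, 170.4, 168 and 170.0 CPM in miR-690oe. All 4 miR-690oe libraries were below the controls, 3 of them by little, and the log2 fold change was -0.11 ± 0.050 (limma adjusted p = 0.0795). Library 1 of miR-690oe carried much of it: without it the value was -0.06 (limma adjusted p = 0.234), and without each other library it lay between -0.13 and -0.10, none past the threshold. The call depended on the scaling: the adjusted p was 0.0292 with TMM factors, 0.0378 with median-of-ratios scaling, 0.036 with quantile normalization and 0.0471 with scaling to the total outside ribosomal protein genes. In the authors' deposited table, Rpl7l1 had a false discovery rate of 0.0428, and that table called 45 of the 47 genes lower and 0 higher, against 20.6% and 24.7% of all its entries.

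The ratios of the paralogues overlapped between the groups, and no difference was shown. The log2 ratio of Rpl22l1 to Rpl22 was -1.97 ± 0.0606 in controls and -1.91 ± 0.114 in miR-690oe (exact two-sided permutation p = 0.429, adjusted p = 0.536). That of Rpl7l1 to Rpl7 was -3.13 ± 0.0534 and -3.03 ± 0.0546 (exact two-sided permutation p = 0.0857, adjusted p = 0.429). After detrending, Rpl22 fell by 0.13 (limma adjusted p = 0.0311) when the longest annotated transcript of 2051 nt was used, but stood at -0.004 (limma adjusted p = 0.952) with its principal transcript of 474 nt. Rpl7 stood at -0.09 (limma adjusted p = 0.117), Rpl7l1 at -0.11 (limma adjusted p = 0.107) and Rpl22l1 at 0.03 (limma adjusted p = 0.634) in the fit on the longest transcript.

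Rpl39 and Rpl36a, whose paralogues were not listed, also fell. Rpl39, near the exit of the tunnel, had 356, 326, 317 and 338 CPM in the controls and 249.5, 283, 318 and 286 CPM in miR-690oe. Its miR-690oe library 3 reached the lowest control, and it fell by 0.24 (limma adjusted p = 0.00491). Rpl36a, which touches the end of the departing tRNA, had 449, 435, 417 and 435 CPM in the controls and 367, 352, 386 and 409.8 CPM in miR-690oe. It fell by 0.20 (limma adjusted p = 0.00377) without overlap. Detrended, Rpl39 stood at -0.04 (limma adjusted p = 0.573) and Rpl36a at -0.01 (limma adjusted p = 0.868).

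Entries with related names that the rule left out were also listed. The entry Rpl14-ps1, a pseudogene, stood at 13.3 ± 0.933 CPM in the controls and 10.7 ± 1.31 CPM in miR-690oe (SD, n = 4) and fell by 0.30 (limma adjusted p = 0.0103), and Rpl37rt stood at 42.6 ± 3.34 CPM and 36.6 ± 3.15 CPM in the same order and fell by 0.22 (limma adjusted p = 0.0156). Whether their reads came from Rpl14 and Rpl37 was not tested.

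Levels were compared between genes per length, as CPM per kb of principal transcript. In controls the median of the 47 was 917 CPM per kb, and 29 genes lay within 2-fold of it. Rplp1 was highest at 3501 CPM per kb, followed by Rplp0 at 3007, Rpl32 at 2602, Rpl9 at 2310.1, Rpl8 at 2183, Rpl12 at 1819.6 and Rpl4 at 1769 CPM per kb. Thus 3 of the 7 highest, Rplp1, Rplp0 and Rpl12, belong to the stalk or its base, while Rplp2, the partner of Rplp1, stood at 1152 CPM per kb. That contrast depends on the annotated lengths, 499 nt for Rplp1 and 964 nt for Rplp2. The order of the other genes rests on the principal transcript too, which for Rpl9 has 738 nt against 2690 nt for its longest. The transcripts these cells use were not measured, and the SDs given below do not cover this choice. At the bottom were Rpl35a at 24.3 CPM per kb, Rpl29 at 61.1, Rpl7l1 at 67.9, Rpl22l1 at 221 and Rpl27a at 224 CPM per kb. The SD over the 4 control libraries was 0.704 CPM per kb for Rpl35a and 156 CPM per kb for Rplp1, so the ends of the order lie far beyond their spread, while neighbours within the broad middle do not: Rpl37 at 917 and Rpl37a at 909.9 CPM per kb have SDs of 33.3 and 38.1.

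**Figure D2:**
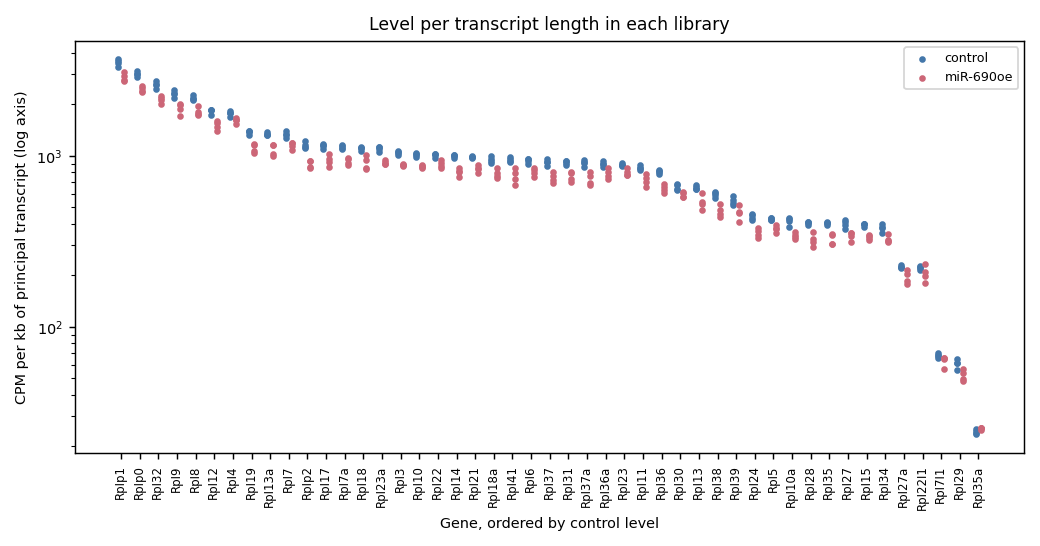
CPM per kb of principal transcript (y axis, log scale) in each control (blue) and miR-690oe (red) library, 1 point per library, with genes in order of their control level (x axis). The order runs from Rplp1 at a mean of 3501 CPM per kb in controls to Rpl35a at 24.3 CPM per kb, and it is nearly the same in miR-690oe.

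The order of levels was close to the same in both groups, with a Spearman rho of 0.991 over the 47 genes, given as a description since both groups share the genes, their lengths and their base composition. The rank of 16 genes did not move, and the largest step was that of Rpl23, by 6 places. Rpl29, which mice can live without, had 43.8, 43.6, 39.9 and 46.1 CPM in the controls and 38.2, 34.2, 35.1 and 40.4 CPM in miR-690oe, with overlapping groups, and fell by 0.23 (limma adjusted p = 0.00748). Its detrended log2 fold change was close to 0 (limma adjusted p = 0.994).

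Levels of ribosomal protein genes are uncertain in this kind of table, because the genome holds many processed copies of them. Over the 47 genes, 7.86% to 95.1% of the 50-base stretches of their transcripts also occur in other annotated genes, with a median of 57.4%, and 30 genes share over 50%. Rpl35 shares 95.1%, Rpl5 93.8% and Rpl10 92.1%, while Rpl8 shares 7.86%, Rpl7l1 9.19%, and Rpl4 and Rpl39 16.5% each. Across the 47 genes the shared part had a Spearman rho of -0.12 with the level per kb and of -0.08 with the log2 fold change. Rpl8, the gene that shares the least, averaged 1858 ± 51.6 CPM in the controls and 1539.7 ± 83.0 CPM in miR-690oe and fell by 0.27 (limma adjusted p = 0.00034). The other genes named here for sharing little differed. Rpl7l1 did not pass (-0.11, limma adjusted p = 0.0795). Rpl4 fell by 0.14, a call that several alternatives ended, and Rpl39 fell by 0.24 (limma adjusted p = 0.00491).

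Among the 47 genes, which cover a narrow range of lengths, fold change followed length weakly. The Spearman rho of log2 fold change and longest transcript length was 0.22 over the 47 genes and 0.74 over 10304 other genes. Of the 25 large-subunit genes under 1000 nt 23 fell (92%), with a median of -0.28, and of the 22 of 1000 nt and over 21 fell (95.5%), with a median of -0.26. Other genes from 1000 to under 2000 nt had a median of -0.13, and 869 of 2039 (42.6%) fell. With GC content of the longest transcript, rho was -0.51 over the 47 genes and -0.39 over the others, so that GC-rich large-subunit genes tended to have the lower fold changes. These are correlations across genes, which are not independent replicates.

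**Figure D3:**
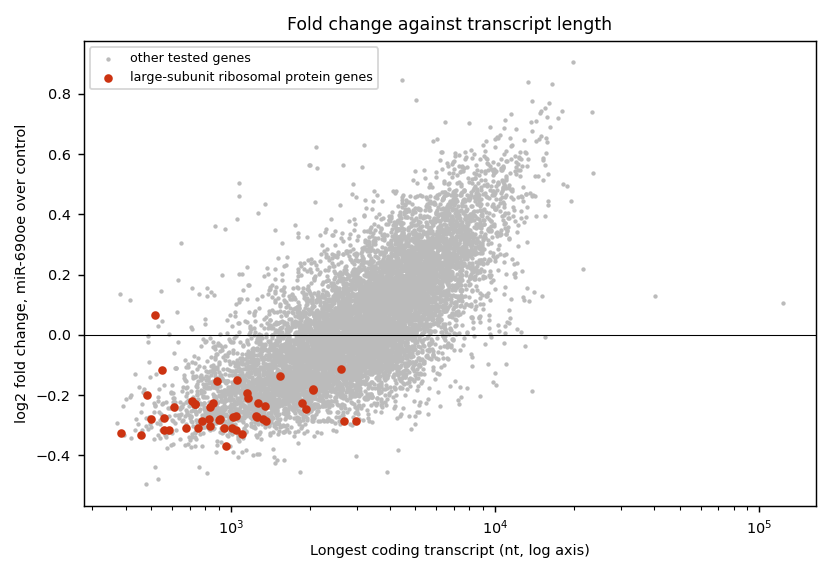
Log2 fold change, miR-690oe over control (y axis), against the length of the longest coding transcript (x axis, nt, log scale) for large-subunit genes in red and other tested genes in grey. Large-subunit genes lie at the short end, between 383 and 2989 nt, and 46 of 47 are below 0, while most other genes over 6000 nt are above 0.

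The libraries with the lowest large-subunit values were those with the largest shift over length. The median log2 ratio of the 47 genes to the control mean was -0.34, -0.30, -0.22 and -0.18 in miR-690oe libraries 1 to 4, and 0.02, 0.02, -0.05 and 0.003 in controls 1 to 4. That of other genes under 1000 nt was -0.30, -0.24, -0.20 and -0.12 in the miR-690oe libraries, and that of other genes over 6000 nt was 0.40, 0.31, 0.29 and 0.22. All 3 classes were farthest from 0 in miR-690oe library 1 and closest in library 4. The large-subunit median was lower than that of other short genes in each of the 4 miR-690oe libraries, and the difference was not tested.

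**Figure D4:**
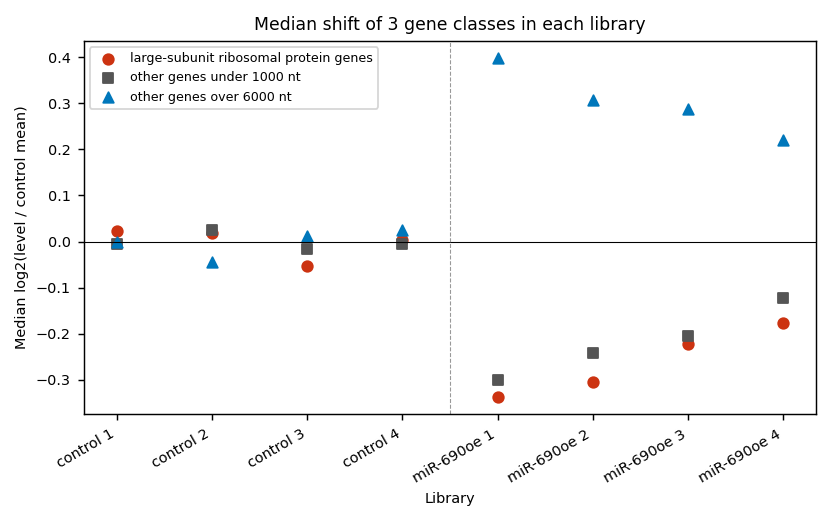
Median log2 ratio to the control mean (y axis) in each library (x axis) for large-subunit genes (red circles), other genes under 1000 nt (grey squares) and other genes over 6000 nt (blue triangles). In miR-690oe libraries the first class lies between -0.34 and -0.18 and the last between 0.22 and 0.40, and in controls all lie between -0.05 and 0.02.

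Which genes fell after detrending differed between the fit on the longest transcripts and the fit on the principal transcripts. With the longest coding transcript and with the principal transcript, 13 genes fell each time, against 9.05% and 9.82% of all genes (7.36% and 8.89% rose), and 7 fell in both: Rplp2, Rpl28, Rpl37a, Rpl14, Rpl37, Rpl17 and Rpl5. Among these 7 only Rpl17 (1326 and 775 nt) has a principal transcript that differs in length from its longest one. For the others, falling in both fits does not test the choice of their own transcript. Rpl9, Rpl18, Rpl31, Rpl15, Rpl21 and Rpl22 fell with the longest transcript and not with the principal one, and the reverse held for Rpl13a, Rpl24, Rplp0, Rpl12, Rpl7 and Rpl7l1. For each of the latter genes the longest and the principal transcript have the same length and GC content, so only the fitted curve differed. Rpl9 shows the former case, in which the gene's own transcript differs. Its longest transcript has 2690 nt and its principal transcript 738 nt, and its log2 fold change was -0.30 (limma adjusted p = 0.00165) with the first and -0.12 (limma adjusted p = 0.0722) with the second. Rpl18, with 2989 and 679 nt, stood at -0.27 (limma adjusted p = 0.00354) and -0.06 (limma adjusted p = 0.324). Rpl35a, with 519 and 491 nt, rose by 0.25 in both (limma adjusted p = 0.0117 in each).

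**Figure D5:**
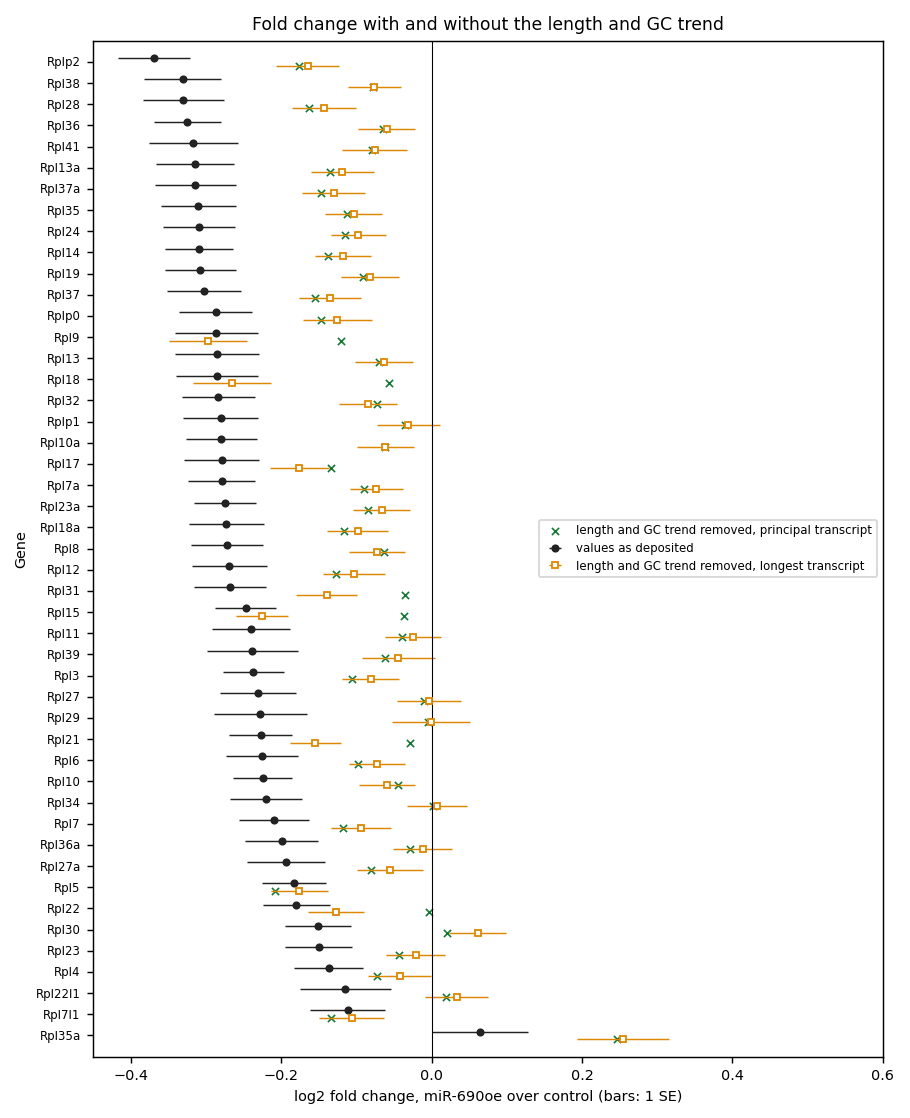
Log2 fold change, miR-690oe over control (x axis, bars 1 SE), of each large-subunit gene (y axis) from the values as deposited (black) and detrended for length and GC on the longest (orange squares) or principal (green crosses) transcript. The median moves from -0.27 to -0.08, Rpl35a moves to 0.25, and the squares and crosses are far apart for Rpl9, Rpl18, Rpl15 and Rpl22.

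Small-subunit ribosomal protein genes, the partners of the large subunit, gave nearly the same values. All 34 listed genes (100%) fell and 0 rose, against 17.4% and 26% of all genes, with a median log2 fold change of -0.27. After detrending 14 fell (41.2%) and 0 rose, against 9.05% and 7.36% of all genes. Rps10 (0.776 of control, limma adjusted p = 1.5e-05), Rps15 (0.771, limma adjusted p = 1.65e-05) and Rps21 (0.794, limma adjusted p = 2.87e-05) had the lowest adjusted p. Detrended, Rps10 (-0.15, limma adjusted p = 0.0299) and Rps15 (-0.12, limma adjusted p = 0.0474) fell, and Rps21 did not pass (-0.08, limma adjusted p = 0.16).

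Other genes with TOP mRNAs moved in both directions, most of them down. Of 17, 12 fell (70.6%) and 2 rose (11.8%), against 17.4% and 26% of all genes, with a median of -0.17. With each library left out in turn, 10 to 11 of the 17 fell. After detrending 5 fell (29.4%) and 0 rose, against 9.05% and 7.36% of all genes. Eef1g and Eef1b2, subunits of the exchange factor of elongation, fell by 0.30 and 0.28 (limma adjusted p = 8e-05 and 0.000115), and Eif3f, an initiation factor subunit, by 0.27 (limma adjusted p = 0.000121). All 3 fell in both fits, with detrended values of -0.20, -0.25 and -0.25 (limma adjusted p = 0.00311, 0.00112 and 0.000509). Ipo7, an importin that carries ribosomal proteins into the nucleus, rose by 0.22 (limma adjusted p = 0.00646) and Eif4a2, an initiation helicase, by 0.15 (limma adjusted p = 0.00912). Among 12 elongation and termination factors, 6 fell (50%) and 2 rose (16.7%), beside the same 17.4% and 26%. Eef1g, Eef1b2 and Eef1d (-0.22, limma adjusted p = 0.00138) had the lowest p of those that fell, and the 2 that rose were Abce1 (0.15, limma adjusted p = 0.0181) and Eif5a2 (0.23, limma adjusted p = 0.0308). Detrended, 4 fell (33.3%) and 0 rose, against 9.05% and 7.36% of all genes. The 2 that rose rested on single libraries, since 0 passed without control 2 and 1 passed without control 1, miR-690oe 2 or miR-690oe 3.

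Of 14 regulators of TOP mRNAs, 1 fell (7.14%) and 7 rose (50%), against 17.4% and 26% of all genes, with a median of 0.18 that was -0.02 after detrending. Larp1, which binds the TOP tract, rose from 168 to 219.7 CPM, or by 0.38 on the log2 scale (SE 0.053, limma adjusted p = 5.19e-05), and still rose after detrending, by 0.18 (limma adjusted p = 0.0184). Larp4 and Larp4b, relatives of Larp1 that bind poly(A), rose by 0.40 and 0.32 (limma adjusted p = 5.51e-06 and 0.000106), but not after detrending (limma adjusted p = 0.0752 and 0.115). Eif4ebp1, the inhibitor of cap binding that mTOR phosphorylates, fell by 0.23 (limma adjusted p = 0.00137), and by 0.18 after detrending (limma adjusted p = 0.00735). In that fit 3 of the 14 fell (21.4%) and 1 rose (7.14%), against 9.05% and 7.36% of all genes.

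The 60 assembly factors of the large subunit moved in both directions. Of these, 13 fell (21.7%) and 9 rose (15%), against 17.4% and 26% of all genes, with a median of -0.03, so the share that fell was near that of all genes. After detrending 10 of 59 fell (16.9%) and 3 rose (5.08%), against 9.05% and 7.36% of all genes. Nop16 (-0.24, limma adjusted p = 0.00237), Nsa2 (-0.20, limma adjusted p = 0.00312) and Bop1 (-0.18, limma adjusted p = 0.00655), all factors of nucleolar or nuclear precursors, had the lowest p among those that fell. After detrending, Nsa2 stood at -0.26 (limma adjusted p = 0.0014) and Bop1 at -0.13 (limma adjusted p = 0.0484). Nop16 did not pass in that fit (-0.14, limma adjusted p = 0.0653). Mdn1, the giant ATPase that strips factors from precursors, rose by 0.74 (limma adjusted p = 1.66e-06), and by 0.27 after detrending (limma adjusted p = 0.00333). Xpo1, the exportin that carries the finished precursor out of the nucleus, rose by 0.41 (limma adjusted p = 2.57e-05) and Sdad1 by 0.23 (limma adjusted p = 0.00206). Detrended, neither Xpo1 (0.14, limma adjusted p = 0.0556) nor Sdad1 (0.06, limma adjusted p = 0.488) passed. Without miR-690oe 2 the number that rose was 5, and without control 1, control 2 or miR-690oe 1 the number that fell was 7, 8 or 8.

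The remaining lists concern what happens to ribosomes and their proteins later on, and their shares stand beside the 17.4% of all genes that fell and the 26% that rose (9.05% and 7.36% detrended). In the pathway that attaches the small modifier Ufm1 to the large-subunit protein Rpl26, 3 of 8 genes fell (37.5%), Ufc1 (-0.21, limma adjusted p = 0.00209), Ddrgk1 (-0.18, limma adjusted p = 0.00501) and Cdk5rap3 (-0.15, limma adjusted p = 0.0321), and 1 (12.5%), the ligase Ufl1, rose (0.23, limma adjusted p = 0.0011). Detrended, 1 fell (12.5%) and 0 rose, and the one that fell is not among the genes just named. Ufc1 then stood at -0.03 (limma adjusted p = 0.591) and Ddrgk1 at -0.009 (limma adjusted p = 0.894). Cdk5rap3 stood at -0.08 (limma adjusted p = 0.227) and Ufl1 at 0.07 (limma adjusted p = 0.38). Of 14 genes for rescue of stalled ribosomes, 1 (7.14%), Rnf25, fell (-0.21, limma adjusted p = 0.003) and 4 (28.6%, near the share of all genes) rose, among them Ascc3 (0.33, limma adjusted p = 0.00013), Ltn1 (0.26, limma adjusted p = 0.000441) and Nemf (0.22, limma adjusted p = 0.00164). Detrended, 2 fell (14.3%) and 1 rose (7.14%), none of them among the rescue genes named here. In that fit Rnf25 stood at -0.06 (limma adjusted p = 0.393) and Ascc3 at -0.001 (limma adjusted p = 0.99). Ltn1 stood at -0.07 (limma adjusted p = 0.175) and Nemf at 0.04 (limma adjusted p = 0.645). With the values as deposited, the number that fell was 2 without control 4.

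Of the 4 genes that link free ribosomal proteins to p53, Mdm2 rose from 4821 ± 128 to 5676 ± 251 CPM (log2 fold change 0.23, limma adjusted p = 0.0015), and by 0.18 after detrending (limma adjusted p = 0.0214). Its relative Mdm4 rose by 0.39 (limma adjusted p = 0.000106), and stood at 0.09 after detrending (limma adjusted p = 0.197). Cdkn1a, a target of p53, fell by 0.13 (limma adjusted p = 0.0141), but none of the 4 fell without control 2. Detrended, Cdkn1a stood at -0.04 (limma adjusted p = 0.445).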

How the data were processed

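RNA sequencing gave 8 libraries. Trimmomatic 0.38, edgeR 3.20.9 and mm10 appear in the submitters' processing notes; aligner, counter and strandedness are not given in the sources used. The deposited values are CPM: the table is named for RPKM, but each library's column sums to 1000000 over the listed genes, so these values were scaled to that total. The authors' log2 fold changes differ somewhat from those here (Rplp2 -0.387 against -0.370, Rpl35a 0.0496 against 0.0644). Whether a further scaling entered theirs was not tested. All values (100%) were whole multiples of a step per library within 0.1 read, which gave the depth. Per the file headers, the authors' table also holds a log2 fold change, an average log2 CPM, a likelihood ratio (taken as a score), the p-value and its false discovery rate.

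Genes with at least 0.5 CPM in at least 4 libraries (10658) were put on the scale log2(CPM + 0.5) and fitted by limma 3.58.1 under R 4.3.3 (lmFit, eBayes with trend, two-sided, Benjamini-Hochberg over all genes tested, threshold 0.05). Log2 fold changes are miR-690oe over control on that scale. The scripts were tested on simulated data. The design assumed RPKM, and the same test was kept for CPM. Lengths, GC content, 3' UTRs and shared 50-base stretches came from GENCODE M21 (the build of mm10), which matched 10615 entries, 140 through an older symbol. The longest basic coding transcript was used for detrending, in which a trend was subtracted per library by splines with 5 degrees of freedom for length and for GC over 10386 genes. The principal transcript, the best by APPRIS and support and then the shortest, was tried after the data were seen. Sequences are RefSeq's (GRCm38.p6).

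Replicate libraries were not copies: mean chi-square per gene was 3.96 to 8.03 among controls, 9.49 to 11.7 among miR-690oe 2 to 4, and 17.0 to 21.9 for pairs with miR-690oe 1. Values in every library are given for the stalk, Rpl5, Rpl11, Rpl10, Rpl24, paralogue pairs, the 6 genes with the lowest and the 6 with the highest fold change, and those that missed the threshold. In each pathway list, up to 3 genes with the lowest adjusted p in each direction are named. Rpl29 and Rpl8 were added after their values were seen. A list of large-subunit genes outside the name rule is not reported here. The genes and lists were chosen with earlier results of these data known. Alternatives covered pseudocount, filter, scaling, variance model, weights, threshold, a replicate block and each library left out.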

Additional observations from a re-analysis of the deposited data

Results flagged for a closer look

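For each of the 47 genes and for their summed level, in each group of 4 libraries (96 tests, 94 of them of single genes), the gap between the most extreme library and its neighbour was compared with the group's range, and 4 exceeded Dixon's 95% critical value, where chance flags about 1 in 20 groups. Rpl12 was lowest in control 3, at 2162 CPM, with the other controls at 2290.2 to 2297 CPM. Rpl15 was also lowest in control 3, at 309.5 CPM against 320.1 to 321 CPM. Rpl7l1 was lowest in miR-690oe 1, at 147 CPM against 168 to 170.4 CPM. Rpl35a was lowest in miR-690oe 2, at 12.2 CPM against 12.6 CPM.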

How the results depend on the processing

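The number of large-subunit genes that fell was 44 with pseudocounts of 0.1 and 2, no filter or a filter of 5 CPM, no variance trend, array weights or a replicate block, 45 with median-of-ratios, TMM or scaling outside ribosomal protein genes, and 41 with quantile normalization or a threshold of 0.01. Leaving out each library gave 43 to 45, none higher, and medians of -0.29 to -0.24. Removal of the length and GC trend gave 13 lower, 1 higher and a median of -0.0811, with principal transcripts 13, 1 and -0.0779, and with the replicate block 9, 1 and -0.0811. Of all genes, 9.05% fell and 7.36% rose in the detrended fit on longest transcripts, and 9.82% and 8.89% in that on principal transcripts. The shares of all genes that fell or rose in the other alternative fits, the replicate block included, are not given here. Under the 3 fits with the trend removed, the sign turned for Rpl22l1 (0.0332, 0.0196 and 0.0332), Rpl30 (0.0610, 0.0205 and 0.0610) and Rpl34 (0.00721, 0.00128 and 0.00721). The cause was not tested. The share of all calls that were higher was 59.9%, 46.4% with quantile normalization and 52.6% with median-of-ratios scaling.

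With the trend removed, the lists gave 3 lower and 1 higher (TOP regulators), 1 and 0 (Ufm1 pathway), 0 higher (elongation), 0 and 1 (p53), 3 higher (assembly), 5 and 0 (other TOP genes), 2 and 1 (rescue) and 14 lower (small subunit). With median-of-ratios scaling 2 rescue genes fell. Leaving out each library gave, for elongation, 0 to 3 higher, for p53 0 to 1 lower, and for assembly 5 to 10 higher and 7 to 13 lower. For rescue it gave 1 to 2 lower and for the Ufm1 pathway 2 to 4 lower. Other TOP genes had 10 to 11 lower and 2 to 3 higher, against 12 and 2 with all libraries.

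Deviations from the group means correlated at -0.30, 0.31, -0.10 and -0.33 between same-numbered libraries. Between differently numbered ones they correlated at -0.28 to 0.33. No pairing was shown, but 4 libraries in each group are too few to exclude it. The block left the count at 44. The planned edgeR test on recovered reads was not run. Length and GC content of the transcripts these cells use were not measured. Depth limits Rpl35a, whose counting error of 5.36% in the library with 348 reads is larger than its ratio's distance from control, and shared sequence leaves single levels uncertain.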
